A study of Mus musculus with 18 samples.

Results

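Neurons cultured from mouse dorsal root ganglia (DRG) and carrying 1 tm1a allele of Dynlrb1 (Dynlrb1 tm1a/+, HET) were compared with wild-type (WT) cultures after 24 h in culture. The samples were chosen by the genotype and time in their labels, which gave 3 HET and 3 WT cultures, numbered 1, 2 and 5 in both genotypes, of 18 cultures in the series. The remaining 12 cultures were of the same 2 genotypes at 12 and 48 h, again 3 per group, and entered here only to estimate the spread between cultures and to set the 24 h values beside. Tm1a is a knockout-first allele, in which a targeting cassette with a splice acceptor taken from the En2 gene is placed within the gene, so that transcripts can be cut short without a deletion of the coding exons. All groups were cultured neurons, and the labels give no strain, age, sex or number of mice per culture. They call the cultures biological repeats and do not say whether same-numbered HET and WT cultures form pairs.

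DRG neurons are sensory neurons whose cell bodies lie beside the spinal cord and whose axons reach the skin, muscle and viscera. Cytoplasmic dynein is the motor that walks along microtubules toward the cell body, and it carries endosomes with neurotrophin receptors, autophagosomes and injury signals bound to importins. The motor is built on a heavy chain with intermediate, light intermediate and light chains. Dynlrb1 encodes a light chain of the roadblock family, Dynlrb2 is its paralogue, and dynactin is the partner complex that most dynein functions need.

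Values are the authors' normalized counts, 1 value per gene and culture, and 17198 genes were measured. Differences are HET minus WT on the scale of log2(normalized count + 1), tested with limma and adjusted over all 17198 genes by the Benjamini-Hochberg method, with a threshold of 0.05. The values were adjusted before deposit and sequencing depth is unknown. The median half-width of a gene's 95% confidence interval was 0.37 on the log2 scale. It was 0.24 among the 7069 genes with a mean of at least 1000 and 0.998 among the 3673 genes with a mean under 50.

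The 6 cultures were alike across genes. Pearson's r of the log2 values was from 0.983 to 0.992 between cultures of 1 genotype and from 0.984 to 0.993 between genotypes. HET culture 1 stood apart from the other 5. It had the lowest value of the 6 cultures in 38.2% of the genes with a mean under 50, against 10.8% to 14.4% for each other culture. The counts of genes by sign, by size and by unadjusted p are therefore given with and without it below.

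The sensory neuron identity of the cultures was checked with 15 markers, and the lowest value of any of them was 2448 (Isl1, a transcription factor of sensory neurons). The summed normalized count of these markers was from 537740 to 597170 in WT and from 558740 to 588930 in HET. Tubb3, a neuronal tubulin, stood at 72485 ± 7128 (SD, n = 3) in WT and 79420 ± 9433 in HET, and Scn10a, a sodium channel of nociceptors, at 38768 ± 4706 and 34203 ± 2764. Markers of other cells were present at lower sums. The 14 Schwann cell and myelin markers summed to 32332 to 37522 in WT and 33057 to 39404 in HET, and the 12 satellite glia markers to 46014 to 52075 and 38088 to 51536. The lowest satellite glia sum was that of HET culture 1. The 18 macrophage markers ranged from 4417 to 5460 in WT and from 3758 to 8146 in HET, and the 11 neutrophil and red cell markers from 821 to 3094 and from 1446 to 4554. HET culture 5 had the highest value in both of these sums. None of the sums in this paragraph separated the genotypes. In bulk samples, fewer cells of a type and less RNA per cell cannot be told apart.

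Xist, the RNA that coats the inactive X chromosome of females, varied with the culture number in both genotypes. Its normalized count was 25866 in WT culture 1, 1582 in WT culture 2 and 36.1 in WT culture 5. In the HET cultures of the same numbers it was 18268, 1056 and 90.0. Both number 1 cultures were thus high, both number 2 cultures intermediate and both number 5 cultures low. Xist was the measured member of the list of sex-linked genes, and its log2 difference was 0.07 (SE 2.78).

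**Figure D1:**
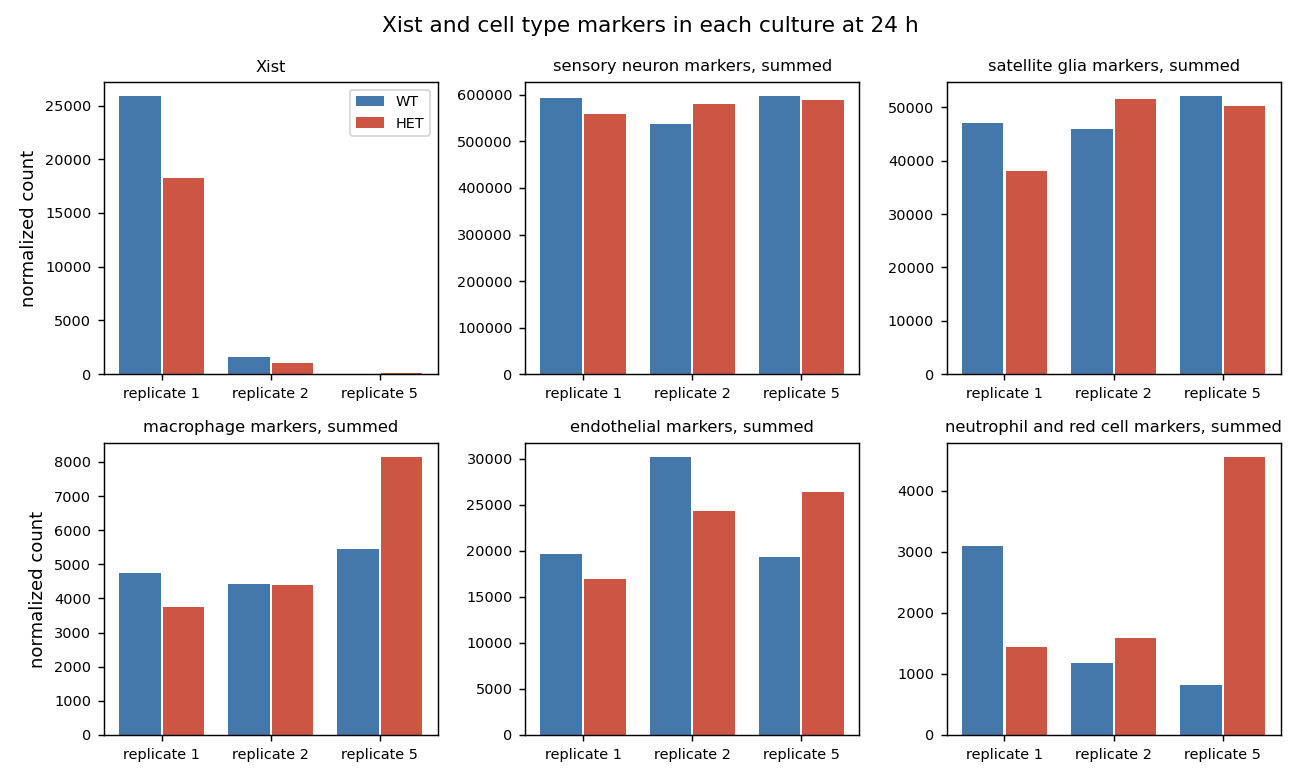
Normalized count (linear vertical axes) of Xist and summed normalized counts of 5 marker lists in each of the 6 cultures at 24 h, with WT in blue and HET in red for each replicate number. Xist runs from 36.1 to 25866 and orders by replicate number in both genotypes, while the macrophage sum and the neutrophil and red cell sum are highest in HET culture 5, at 8146 and 4554.

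Dynlrb1 itself was the gene that passed the test. Its normalized count was 5702, 5229 and 6427 in WT cultures 1, 2 and 5 and 2716, 3811 and 3085 in the HET cultures of the same numbers. Every HET culture lay below every WT culture, and HET culture 2 lay closest to the WT group. The mean fell from 5786 ± 603 (SD, n = 3) to 3204 ± 557 (SD, n = 3), 55.4% of the WT mean. The log2 difference was -0.86 (SE 0.12, 95% confidence interval from -1.12 to -0.60), with a limma adjusted p of 0.0390. On the length-scaled FPKM values of the authors, Dynlrb1 stood at 203 ± 21.2 in WT and 112.5 ± 19.6 in HET (SD, n = 3). An exact two-sided permutation test over the 6 cultures gave p = 0.1, the smallest that 3 against 3 allows. The log2 fold change that the authors' deposited table gives is -0.85.

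The direction of the Dynlrb1 difference held in each culture pair, and its call was lost when some of the cultures were left out. The same-numbered pairs differed by -1.07, -0.46 and -1.06 on the log2 scale. With any 1 culture left out the difference stayed between -0.99 and -0.75. The limma adjusted p was 0.00777 without HET culture 2, and rose above the threshold without WT culture 1 (0.284), WT culture 2 (0.0731), WT culture 5 (0.484), HET culture 1 (0.390) or HET culture 5 (0.374). Fewer cultures enter each of these fits. With same-numbered HET and WT cultures of each time as a block, the log2 difference was -0.86 with a limma adjusted p of 0.157. In the GRCm38 annotation (GENCODE M21) Dynlrb1 (ENSMUSG00000047459) lies on the plus strand at chr2:155236533-155250277, and both of its protein-coding transcripts have 4 exons. The table gives 1 value per gene, so full-length transcripts and ones cut short at the cassette were not separated here.

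**Figure D2:**
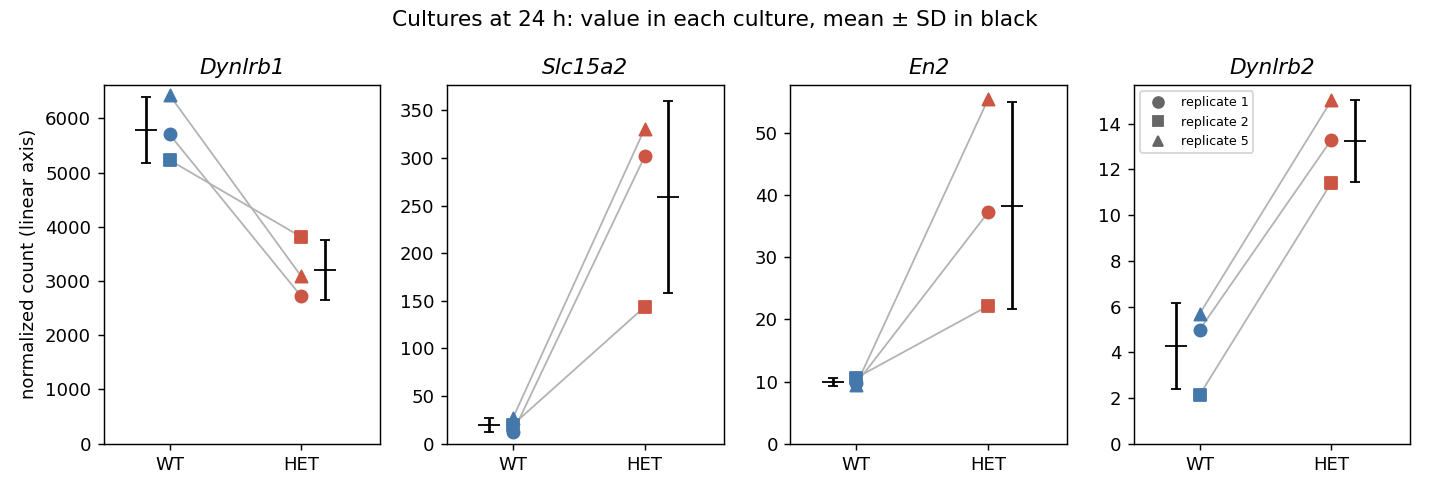
Normalized count (linear vertical axes starting at 0) of Dynlrb1, Slc15a2, En2 and Dynlrb2 in the 3 WT (blue) and 3 HET (red) cultures at 24 h, with grey lines joining same-numbered cultures and black bars giving mean ± SD. Dynlrb1 is lower in all 3 HET cultures (2716 to 3811 against 5229 to 6427), and the other 3 genes are higher in all 3.

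Beyond Dynlrb1, 0 other genes passed the threshold. Adjusted p was under 0.05 for 1 of 17198 genes (0.00581% of those tested), and it was lower in HET. An unadjusted limma p under 0.05 was found for 198 genes (1.15%), 52 higher (0.302%) and 146 lower (0.849%) in HET. In 963 genes (5.60%) the 3 HET cultures did not overlap the 3 WT cultures. Of these 484 were higher (2.81%) and 479 lower (2.79%). With no genotype difference, a share of about 0.05 of genes would have an unadjusted p under 0.05. Separation of 3 against 3 would be met by a share of about 0.1. Both shares seen here were below these. Counted by sign alone, 9094 genes (52.9%) were higher in HET. The authors' deposited table lists 2 genes with an adjusted p under 0.05, Dynlrb1 and Slc15a2, and 206 with a p under 0.05.

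The excess of lower over higher genes lay among genes of low level. Of the 3673 genes with a mean under 50, 140 were lower and 25 higher by more than 1 on the log2 scale, and they held 105 of the 146 genes that were lower at an unadjusted p under 0.05. Among the 7069 genes with a mean of at least 1000 no gene (0) differed by more than 1, and 9 were higher and 9 lower at that p. With quantile normalization 80 genes were lower and 70 higher by more than 1, and the unadjusted calls were 106 higher and 121 lower. Without HET culture 1 they were 206 higher and 172 lower, 378 in all, and 101 genes were higher and 142 lower by more than 1, against 30 and 143 with it. By sign 10129 genes (58.9%) were then higher in HET, against 9094 with it. Without HET culture 2 they were 362 and without WT culture 5 they were 322. In pair 1, 1054 genes were lower in HET by more than 1 and 160 higher, against 298 and 312 in pair 2 and 510 and 454 in pair 5. In all 3 pairs 2108 genes (12.3%) were higher in HET and 1512 (8.79%) lower. Across the 17198 genes, which are not independent replicates, the differences of pairs 1 and 2 correlated at r = -0.17, of pairs 1 and 5 at 0.01 and of pairs 2 and 5 at 0.03.

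**Figure D3:**
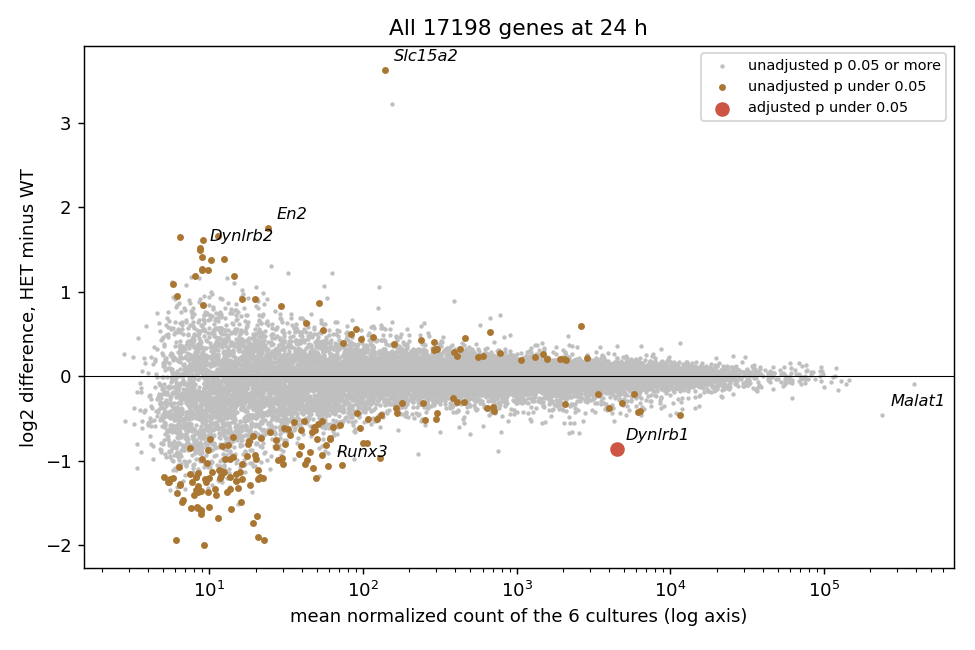
Log2 difference, HET minus WT, against the mean normalized count of the 6 cultures at 24 h (log axis) for 17198 genes, with 1 point per gene. Dynlrb1 (large red point) is the gene past the adjusted threshold, and among genes with an unadjusted p under 0.05 (brown) 146 lie below 0 and 52 above.

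The largest difference was in Slc15a2, which encodes a proton-coupled transporter of di- and tripeptides. Its normalized count was 11.9, 19.96 and 27.0 in WT cultures 1, 2 and 5 and 302, 144 and 331 in the HET cultures of the same numbers. The HET values all lay above the WT values, and the HET mean was 13.2 times the WT mean. The log2 difference was 3.63 (SE 0.63) with a limma unadjusted p of 2.46e-05 and an adjusted p of 0.212, so it did not pass. For Slc15a2 the authors' deposited table has a log2 fold change of 3.71 and an adjusted p of 1.25e-05. Slc15a2 lies on the minus strand at chr16:36750177-36784962. On FPKM it was 0.12 ± 0.045 in WT and 1.55 ± 0.61 in HET (SD, n = 3). The 4 other measured peptide transporter genes of its family had log2 differences from -0.22 (Slc15a1) to 0.15 (Slc15a5), and none of the 4 separated the groups.

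En2, a homeobox gene whose splice acceptor is part of the tm1a cassette, was higher in each HET culture. It stood at 9.73, 10.6 and 9.50 in WT and 37.2, 22.2 and 55.5 in HET for cultures 1, 2 and 5. The WT values were close together and the HET values were spread. The log2 difference was 1.75 (SE 0.42) with a limma unadjusted p of 6.01e-04 and an adjusted p of 1. Whether these reads came from the cassette or from the En2 locus on chromosome 5 was not tested.

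Dynlrb2, the second roadblock light chain, was also higher in each HET culture, at a level close to the bottom of the table. The normalized count of Dynlrb2 was 4.995, 2.14 and 5.69 in WT and 13.3, 11.4 and 15.0 in HET. The WT mean of these cultures, 4.28, was below the WT means of the other times, 6.88 (12 h) and 12.03 (48 h). Their HET mean, 13.25, was above that of 12 h (8.67) and close to that of 48 h (13.32). Whether the low WT group or a rise in HET made the difference was not tested. The groups did not overlap, and the log2 difference was 1.5 (SE 0.50) with a limma unadjusted p of 0.00786 and an adjusted p of 1. On the length-scaled values Dynlrb2 stood at 0.20 ± 0.088 FPKM in WT and 0.62 ± 0.084 FPKM in HET (SD, n = 3), against 112.5 ± 19.6 FPKM for Dynlrb1 in HET.

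Among genes with a mean of at least 50 and no overlap between the groups, those of lowest p were then taken in each direction. None of them but Dynlrb1 passed the threshold, and all others had a limma adjusted p of 1, apart from Slc15a2. The lower ones included Runx3, a transcription factor of proprioceptive neurons. Runx3 stood at 83.7, 102.6 and 55.2 in WT and 41.8, 45.8 and 25.9 in HET, a log2 difference of -1.06 (SE 0.31, unadjusted limma p 0.00291). The log2 differences of the same-numbered pairs were -0.98, -1.15 and -1.06, and the level of Runx3 was low in both groups, at 0.50 ± 0.15 and 0.23 ± 0.065 FPKM (SD, n = 3). Tfap2a, a transcription factor of neural crest derivatives, was at 56.2, 106.6 and 52.2 in WT and 33.0, 47.5 and 27.1 in HET, a log2 difference of -0.94 (SE 0.37).

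Iigp1 and Ifi204, both genes induced by interferon, were among the lower genes. Iigp1 stood at 127.8, 166.5 and 212 in WT and 46.2, 107.7 and 118.8 in HET, a log2 difference of -0.97 (SE 0.38), and Ifi204 at 120.0, 105.1 and 151.7 in WT and 50.2, 84.6 and 85.8 in HET, -0.79 (SE 0.30). HET culture 1 was the lowest of the 6 in both genes. Slc26a7, an anion exchanger, had a log2 difference of -0.75 (SE 0.23), Ankrd34c of -0.81 (SE 0.32) and Srcrb4d of -0.62 (SE 0.21).

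Apart from Slc15a2, the higher genes chosen in this way had log2 differences from 0.27 to 0.60. Htra1, a secreted serine protease, was at 1922, 2467 and 1885 in WT and 3467, 2736 and 3278 in HET, a log2 difference of 0.60 (SE 0.24). Traf4, an adaptor of receptor signalling, was at 393, 384 and 388 in WT and 598, 478 and 527 in HET, a difference of 0.45 (SE 0.19). The 3 WT values of Traf4 were close together and the HET values were spread. The log2 difference was 0.29 for Wrap53, a factor of telomerase trafficking, 0.27 for the splicing factor Isy1, 0.31 for Zfp58, 0.40 for Tmem238 and 0.44 for the predicted gene Gm4285. Wrap53 overlaps Trp53 on the opposite strand, and the strand setting of the counting is not given, so reads of the overlap cannot be assigned here.

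The genes of the motor around Dynlrb1 did not pass the test in either direction. Among the 6 measured light chain genes other than Dynlrb1, 0 passed, 5 were higher by sign, and the median log2 difference was 0.12, against 0.0092 over all genes. Apart from Dynlrb2 they lay between -0.29 (Dynll2) and 0.18 (Dynlt1f). Dynll1, a light chain that also serves as a hub for other proteins, stood at 77.9 FPKM in WT and 83.5 FPKM in HET. Dynlt3 stood at 164.0 and 165.6 FPKM. Dynlt1a and Dynlt1f are near-identical copies, so their values are uncertain. The 9 core and regulator genes had a median of 0.02, with 0 outside the overlap of the groups. Dync1h1, the heavy chain that carries the motor domain, was at a normalized count of 113512 ± 18804 in WT and 108611 ± 23121 in HET, a log2 difference of -0.07 (SE 0.20, SD over n = 3). Pafah1b1, which encodes the regulator Lis1, was at 43484 ± 853 and 42939 ± 2037, a difference of -0.02 (SE 0.081).

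Dynactin genes had a median log2 difference of 0.02 over 12 measured members. Dctn1, the largest dynactin subunit, was the member whose groups did not overlap. It stood at 20698, 22902 and 19903 in WT and 19559, 19081 and 18500 in HET, a log2 difference of -0.15 (SE 0.088). Capza1, a capping protein subunit shared with actin filaments, was at 0.21 (SE 0.097) with an unadjusted limma p of 0.0485 and overlapping groups. Its partner Capzb was at -0.22 (SE 0.13). The 17 adaptors that join cargo to the motor had a median of -0.02, from -0.34 (Rab11fip3) to 0.15 (Ccdc64b), and in 0 of them did the groups not overlap. Genes of dynein-2, the motor of cilia, and of intraflagellar transport had a median of 0.04 over 17 members.

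Kinesins, the motors that mostly run away from the cell body, had a median log2 difference of -0.02 over 30 genes. Kif19a, a motor that shortens the microtubules of cilia, was at 36.2, 27.6 and 38.5 in WT and 15.4, 22.0 and 22.2 in HET, a log2 difference of -0.75 (SE 0.29, unadjusted limma p 0.0189). Kif17, a motor of dendrites and cilia, was at -0.34 (SE 0.18) and Kif9 at 0.30 (SE 0.17), both with no overlap, and Klc2, a light chain of kinesin-1, was the fourth such gene at -0.06, so 4 of 30 kinesins did not overlap, against 5.60% of all genes. Of 15 tubulins 13 were higher by sign, with a median of 0.13, the highest Tuba1c at 0.31 (SE 0.19), and all had overlapping groups. The 23 microtubule-associated proteins had a median of -0.03. Map4 (-0.12, SE 0.088) and Dpysl2 (-0.07, SE 0.087) were lower in each HET culture, with HET means at 92.1% and 95.4% of the WT mean. These 2 of 23 (8.70%) were lower with no overlap, against 2.79% of all genes.

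Genes of axon injury and growth were also described as lists, without a test of the list, since dynein carries injury signals to the nucleus. The 15 transcription factors of regeneration had a median log2 difference of -0.0070. Atf3, the factor most used as a mark of axon injury, was at 41625, 39687 and 39603 in WT and 41961, 41440 and 43725 in HET, a difference of 0.07 (SE 0.21), and Jun was at -0.11 (SE 0.10). The 27 effectors had a median of 0.03. Sprr1a, a small proline-rich protein of growing axons, was at 1134, 2159 and 1909 in WT and 4371, 1463 and 1959 in HET, so that its pairs differed by 1.95, -0.56 and 0.04. Its difference was 0.47 (SE 0.62), and HET culture 1 was far above the other 5. Gap43, a protein of growth cones, was at 0.13 (SE 0.13) and Hspb1, a small heat shock protein, at 0.26 (SE 0.13) with no overlap between the groups. The 19 immediate early genes had a median of -0.13. The lowest was Egr1, at 2446, 5566 and 1800.5 in WT and 1907, 2010 and 1572 in HET, where WT culture 2 was far above the others.

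Importins and Ran pathway genes, which link injury signals to dynein, had 4 of 22 members with non-overlapping groups, all higher in HET, against 2.81% of all genes. Cse1l, the exporter of importin alpha, stood at 4226, 4224 and 4321 in WT and 4837, 4465 and 4602 in HET, a log2 difference of 0.12 (SE 0.076). Xpo1, the main protein exporter of the nucleus, was at 0.15 (SE 0.11), Ran itself at 0.12 (SE 0.079) and Kpna1 at 0.06 (SE 0.064). None of the 4 had an unadjusted p under 0.05. The list's median was 0.03, and it was 0.07 without HET culture 1 and 0.0033 without HET culture 5.

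Lists of sensory neuron function mostly had medians a little below 0, and 0 of their members passed the threshold. The median log2 difference was -0.07 over 14 sodium channel genes, -0.11 over 15 calcium channel genes, -0.12 over 35 potassium and HCN channel genes, -0.07 over 28 ligand-gated channels and -0.12 over 25 synaptic vesicle genes, of which 22 were lower by sign. The pairs differed in sign for sodium channels (-0.19, 0.24 and -0.21) and ligand-gated channels (-0.27, 0.20 and -0.18). All pairs were below 0 for the calcium, potassium and synaptic vesicle lists. Kcnt2 (-0.37, SE 0.19) and Kcnt1 (-0.19, SE 0.22), both sodium-activated potassium channels, were the potassium channels with no overlap. They were 2 of 35 genes (5.71%), where 2.79% of all genes were lower with no overlap. Kcnt1 stood at 4881, 4881 and 4811 in WT and 4027, 4770 and 4008 in HET. The 8 proprioceptor markers had a median of -0.22, from -1.06 (Runx3) to 0.92 (Calb2), with 6 lower and 2 higher by sign. The pairs of this list gave -0.16, -0.09 and -0.46, and without HET culture 5 the median was 0.01. Neuropeptides had a median of 0.04, and Calca, the gene of the peptide CGRP, was at 0.03 (SE 0.20). Penk, the enkephalin precursor, was higher in each HET culture, at 515, 467 and 427 in WT and 694, 597 and 552 in HET, with a difference of 0.39 (SE 0.36). Receptors of neurotrophic factors had a median of -0.10, the lowest Ntrk3 at -0.40 (SE 0.33), the receptor of neurotrophin-3. Their pairs gave -0.16, 0.0066 and -0.11. The 14 genes of non-peptidergic neurons and Mas-related receptors had a median of -0.20, with pairs at -0.40, 0.30 and -0.24.

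Stress and organelle lists had medians from 0.02 to 0.07, against 0.0092 over all genes. The median log2 difference was 0.04 over 27 heat shock genes, 0.07 over 23 genes of the integrated stress response, 0.03 over 24 genes of neuronal apoptosis, 0.03 over 26 lysosome genes, 0.05 over 19 autophagy genes and 0.02 over 56 Rab genes. Bax, a pore-forming inducer of apoptosis, was at 1992, 1957 and 2057 in WT and 2135, 2307 and 2624 in HET, a log2 difference of 0.23 (SE 0.13) with no overlap. Ppargc1a, a coactivator of mitochondrial biogenesis, was lower in each HET culture, at -0.38 (SE 0.20). Ribosomal protein genes had a median of 0.11 (65 of 79 higher by sign), but the pairs gave -0.10, 0.29 and 0.11. Proteasome genes had a median of 0.08 (33 of 39 higher by sign), with pairs at -0.05, 0.18 and 0.13.

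The neutrophil and red cell markers had a median of 0.49, with pairs at -0.999, 0.53 and 2.18. After these, the list farthest from 0 was that of 8 long non-coding RNAs kept in the nucleus, all lower in HET by sign, with a median log2 difference of -0.43. The pairs of the RNA list were -0.64, -0.16 and -0.26. Malat1, an RNA of nuclear speckles, was at 341139, 236062 and 256514 in WT and 186136, 208266 and 204958 in HET, a difference of -0.46 (SE 0.24). Meg3, an imprinted RNA, was at 17764, 11225 and 11361 in WT and 10373, 10192 and 8146 in HET, a difference of -0.47 (SE 0.20). Both separated the groups, and WT culture 1 was the highest of the 6 in both. They were 2 of the 8 RNAs (25.0%), where 2.79% of all genes were lower with no overlap. Snhg11 was at -0.43 (SE 0.17), Miat at -0.46 (SE 0.24) and Neat1 at -0.43 (SE 0.21), with overlapping groups. None passed the threshold, and Meg3 and Snhg11 had an unadjusted limma p under 0.05 (0.0339 and 0.0221). The sum over the list was from 274850 to 393820 in WT and from 222310 to 243600 in HET. Malat1 made up most of this sum in each culture, so the sum adds little to the Malat1 values above. With the directions removed before deposit added to the blocked fit, Malat1 was at 0.10 and Meg3 at 0.052. The share of nuclear RNA in each culture was not analysed here.

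Cell cycle genes, a mark of dividing non-neuronal cells, had a median of 0.11 over 25 members, and 5 of 25 were higher with no overlap, against 2.81% of all genes. Their summed normalized count was from 5907 to 6528 in WT and from 6602 to 7582 in HET, so in this sum every HET culture lay above every WT culture. By the median over members the pairs differed in sign, at -0.03, 0.20 and 0.22. The median of the list was -0.29 at 12 h and -0.75 at 48 h. The 5 genes with no overlap were the replication factors Pcna (0.13, SE 0.090), Mcm2 (0.27, SE 0.22), Mcm3 (0.34, SE 0.25), Mcm5 (0.32, SE 0.27) and Gins2 (0.43, SE 0.35). Mcm3 was at 400.2, 382 and 333 in WT and 472, 436 and 499 in HET. The mitotic genes Mki67 (-0.29, SE 0.47) and Top2a (0.11, SE 0.64) overlapped between the groups. None of the 25 had an unadjusted p under 0.05.

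**Figure D4:**
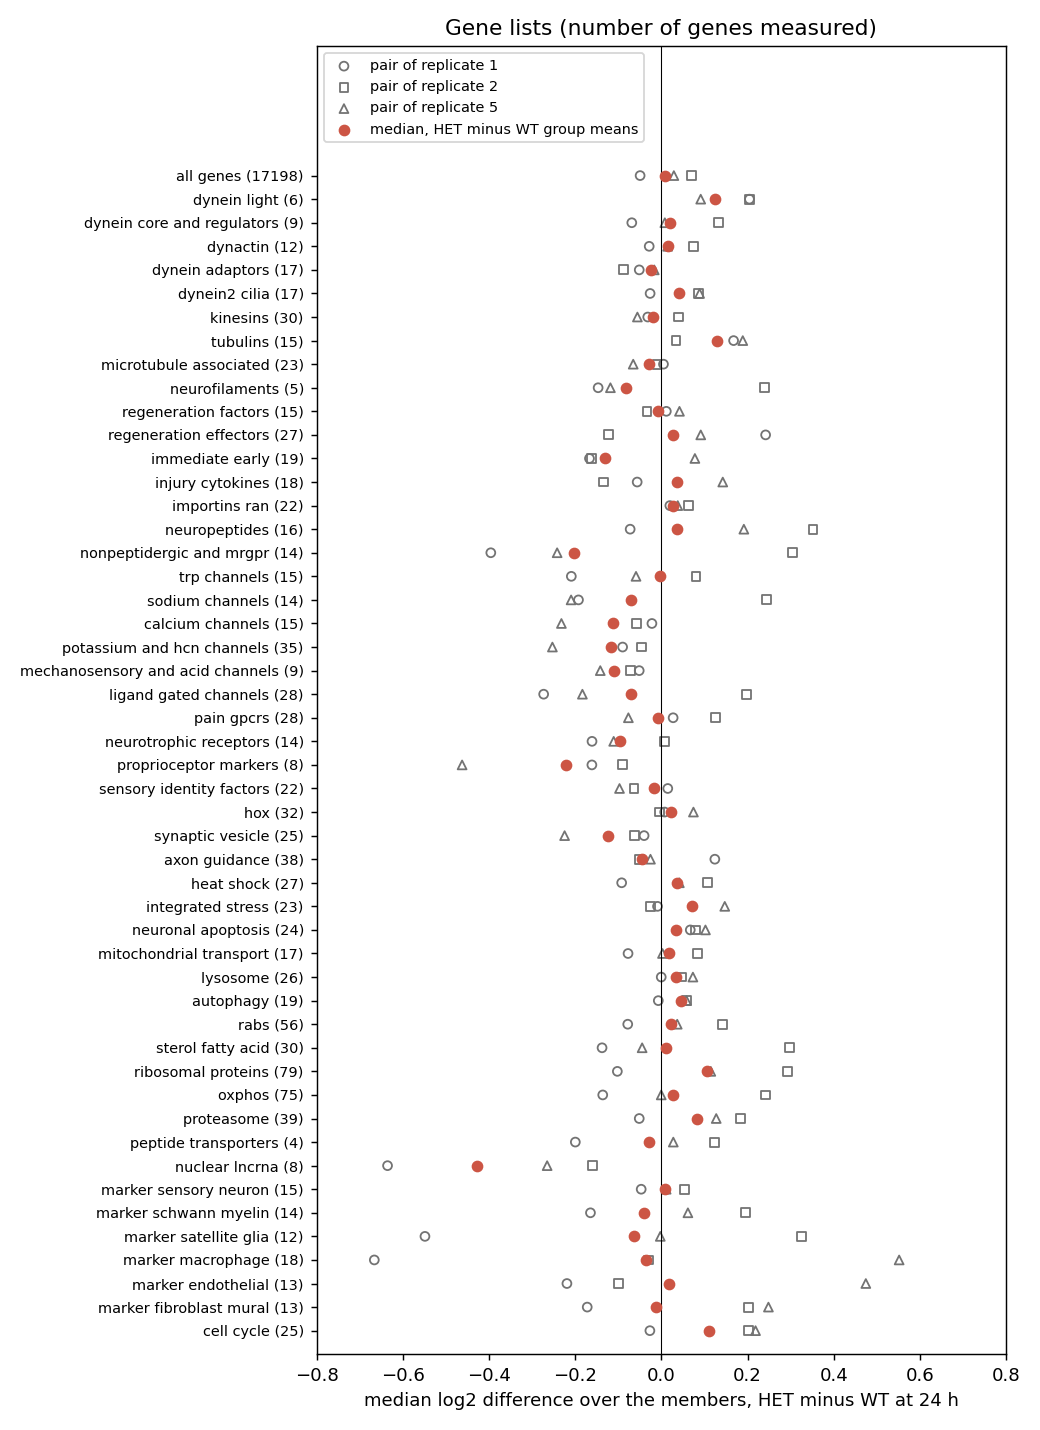
Median log2 difference, HET minus WT at 24 h, over the measured members of each gene list (number in brackets): the red point uses the group means and the open symbols each same-numbered pair, and the lists of sex-linked and of neutrophil and red cell genes, whose pairs reach past the axis, are left out. Medians lie from -0.02 to 0.04 for the motor lists, except the dynein light chains at 0.12 with all 3 pairs above 0. The nuclear long non-coding RNAs lie at -0.43 with all 3 pairs below 0.

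Genes beside Dynlrb1 on chromosome 2 were checked, since they flank the targeted gene. The 12 nearest measured genes with coordinates, 6 on each side over 972 kb, had a median log2 difference of 0.02, and 0 of 12 had an unadjusted p under 0.05. They ran from -0.47 (SE 0.31) for Ncoa6, a nuclear receptor coactivator, to 0.17 (SE 0.12) for Ahcy, an enzyme of the methionine cycle. Itch, the nearest gene before Dynlrb1 at 9.68 kb, was at 0.0093 (SE 0.075), and Map1lc3a, the nearest after it at 26.0 kb, at 0.0082 (SE 0.096). Eif2s2, a subunit of translation initiation factor 2, was the 1 gene of the 12 whose groups did not overlap, at 3379 ± 68.2 in WT and 3660 ± 71.8 in HET (SD, n = 3), a difference of 0.12 (SE 0.098), where 5.60% of all genes did not overlap.

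The genotype difference at 24 h was then set beside those at 12 and 48 h. The contrast between the 24 h difference and the mean of the other 2 had 0 of 17198 genes past the threshold, and 1551 (9.02%) with an unadjusted limma p under 0.05. With same-numbered HET and WT cultures of each time as a block, 82 genes passed the threshold for this contrast. The spread of the differences over all genes was narrowest at 24 h, with an SD of 0.26 on the log2 scale against 0.33 at 12 h and 0.44 at 48 h, and unadjusted p under 0.05 was found for 8.41% of genes at 12 h and 22.0% at 48 h. For Dynlrb1 the contrast was -0.05 (limma adjusted p 0.940), with -0.78 at 12 h and -0.84 at 48 h. Slc15a2 was at 3.72 at 12 h and 1.46 at 48 h. En2 was at 3.33 (limma adjusted p 0.00648) at 12 h and 1.40 at 48 h. Dynlrb2 was at 0.33 and 0.16 at these times, and its contrast of 1.26 had an unadjusted limma p of 0.0553 and an adjusted p of 0.554. Among the WT groups its mean normalized count was lowest in the 24 h cultures (4.28), and the HET mean of 24 h (13.25) was close to both 48 h means (12.03 in WT, 13.32 in HET). Runx3 was at -0.69 at 12 h and 0.02 at 48 h, with a contrast of -0.73 (limma adjusted p 0.578).

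**Figure D5:**
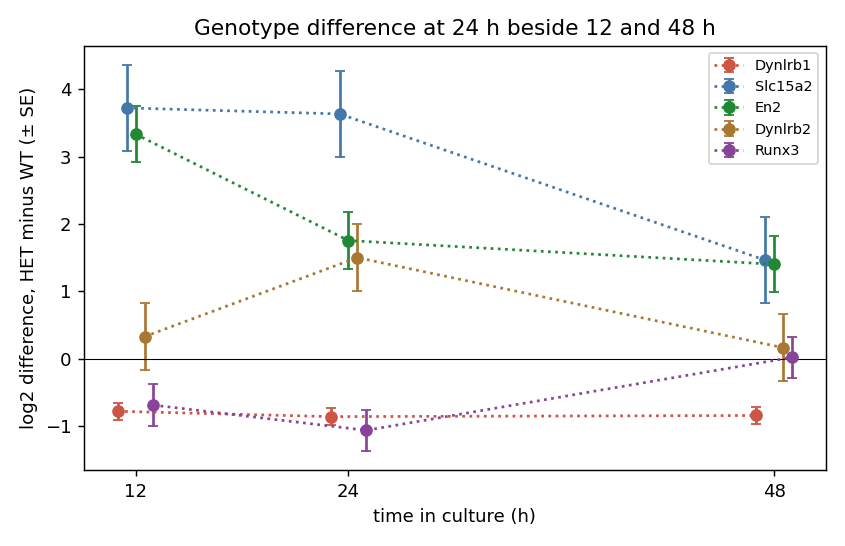
Log2 difference, HET minus WT (vertical axis, ± SE), at 12, 24 and 48 h in culture for 5 genes, drawn with a small sideways offset so that the bars do not cover each other. Dynlrb1 stays between -0.86 and -0.78, while Dynlrb2 is at 1.5 at 24 h and at 0.33 and 0.16 at the other times. Group means are not drawn, and the WT mean of Dynlrb2 was lowest in the 24 h group.

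A few genes separated the genotypes at all 3 times. The HET cultures lay above the WT cultures at 12, 24 and 48 h in 3 genes (0.0174%) and below in 6 (0.0349%). Among all the genes measured, a few would also do so with no genotype difference, and the counts were not tested against that number. Dynlrb1 was the only one of these genes past the threshold at 24 h. The 3 higher ones were En2, the predicted gene Gm5886 and Rsph3b. Rsph3b, a gene of the radial spokes of cilia, stood at 385, 372 and 388 in WT and 431, 417 and 434 in HET at 24 h, a log2 difference of 0.16 (SE 0.11). Gm5886 stood at 13.9, 8.80 and 10.8 in WT and 22.3, 18.3 and 24.4 in HET, a difference of 0.91 (SE 0.28). The 6 lower ones were Dynlrb1, Kif19a, Il1rl2, Msh5, Lor and Glt28d2. Il1rl2, the receptor of interleukin-36, stood at 54.0, 46.7 and 70.5 in WT and 22.5, 29.9 and 28.9 in HET, a difference of -1.04 (SE 0.27, unadjusted limma p 0.00124). At 12 and 48 h Il1rl2 was at -0.63 and -0.51. Msh5, a gene of meiotic recombination, was at -0.64 (SE 0.27) at 24 h, and Lor, which encodes loricrin of the skin barrier, at -0.57 (SE 0.29).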

How the data were processed

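RNA from 18 DRG cultures was measured, and the 6 at 24 h are described here. Per the file headers, the authors deposited normalized counts, a signal with neither whole numbers nor zeros (totals from 41509737 to 41509829 at 24 h), an unlabelled set of per-sample signal columns (the plain adjusted columns), FPKM values, log2 fold changes, p-values and a rank, a score that was not used. CASAVA 1.8.2, edgeR and mm10 are named per the submitters' processing notes, and the aligner, counting and annotation are not given in the sources used here. The deposited log2 values span 15 of 17 possible dimensions, so 2 directions among cultures had been removed, and limma's degrees of freedom are too many by that amount. Replicate number explained 48.4% of them and group 19.5%.

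Values were transformed to log2(normalized count + 1), which understates differences of low genes. A minimum mean of 1 removed 0 genes. Limma 3.58.1 in R 4.3.3 fitted the 18 cultures with 1 coefficient for each group (eBayes with trend, 12 residual and 4.97 prior degrees of freedom), after tests on simulated data, and Benjamini-Hochberg adjustment was over all genes. Coordinates are from GENCODE M21 (GRCm38). Named genes were Dynlrb1, En2, Slc15a2, Dynlrb2, genes past the threshold, the 8 higher and 8 lower non-overlapping genes of lowest p with a mean of at least 50, the defining and up to 3 non-overlapping members of each list, and the neighbours of Dynlrb1. Other names were added after their values were seen. Members and lists were chosen with earlier results of these data known. Alternatives were another pseudocount, filter, scaling or set of cultures, each culture left out, a replicate block, and the block with the removed directions. The replicate block paired same-numbered HET and WT cultures within each time and did not link cultures across times. The removed directions without the block were added after the data were seen.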

Additional observations from a re-analysis of the deposited data

How the results depend on the processing

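The count of 1 gene at 24 h (Dynlrb1) held with pseudocounts of 0.1 and 5, a minimum mean of 5, no filter, the plain adjusted columns and quantile normalization. Leaving out 1 culture gave a count from 0 to 1 and a Dynlrb1 log2 difference from -0.99 to -0.75. The count was 0 in 4 further fits. Dynlrb1 was at -0.86 (limma adjusted p 0.896) with only the 6 cultures at 24 h, at -0.86 (0.157) with the replicate block, at -0.76 (0.940) with the block and the removed directions, and at -0.82 (0.152) with the removed directions without the block, a fit chosen after seeing the data. The cause of these losses was not tested, though each of these fits has fewer residual degrees of freedom. The deviations of same-numbered cultures from their group means correlated at 0.11, -0.21 and 0.26. Replicate number explained 48.4% of the directions removed before deposit, so these correlations cannot decide whether the numbers pair the cultures. The main fit did not pair them because the labels name no pairing. With the block 368 genes had an unadjusted p under 0.05, against 198, and the contrast of 24 h with the other times had 82 genes past the threshold, against 0. The direction reversed for Creb1 (-0.050), Meg3 (0.052) and Malat1 (0.10) with the block and the removed directions, and the cause was not tested. DESeq2 was not run because it needs whole counts. With 3 cultures a group and unknown depth, the median 95% half-width was 0.998 on the log2 scale in genes with a mean under 50, and single genes were above or below it.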

Other observations

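Xist followed the culture number at 12 h as well as at 24 h. Xist was at 18316, 1854 and 83.4 in WT cultures 1, 2 and 5 at 12 h and at 12850, 2381 and 62.5 in the HET cultures. At 48 h Xist was at 17285, 10302 and 19.0 in WT cultures 1, 2 and 3 and at 11982, 2450 and 4680 in the HET cultures. HET and WT cultures are of different mice. Whether same-numbered cultures of 1 genotype came from the same mice at different times was not tested, and the fit treated the 18 cultures as separate.

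Some genes of this table had 1 culture far from the other 5, and they are named after their values were seen. Capn11, a calpain protease, was at 273 in HET culture 5 and from 8.36 to 39.3 in the others. Mir6236 was at 901 in WT culture 2 and from 29.2 to 286 elsewhere. Nrgn, a calmodulin-binding protein, was at 8.67 in HET culture 1 and from 42.4 to 106.0 elsewhere.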
